A study of Saccharomyces cerevisiae with 55 samples.

Results

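The 2 arrays described here, of 55 in the series, compare the yeast strain labelled Rpd3ibs with wild type while both grew in log phase in YEPD, rich glucose medium. They were chosen by their titles, which name Rpd3ibs and no stress, and by sample sources that give mid-log YEPD in both channels. Rpd3ibs is a mutant of the inositol-binding site of the histone deacetylase Rpd3, carried by strain ACY614, and the wild type was ACY044. The study asked what inositol pyrophosphates and Rpd3 complexes do in the response to stress. The other groups used below were rpd3 (ACY433, 1 array), snt1 (ACY591, 2 arrays) and kcs1/vip1, written kcs1vip1 here (ACY236, 3 arrays), each over wild type in the same log growth, and Rpd3ibs over wild type with both strains in 0.375 M KCl for 20 min (2 arrays). All strains are MatA in the W303 background, and the mutants were made by homologous recombination. The labels do not give the residues changed in Rpd3ibs, and say neither that the arrays come from separate cultures nor that the mutant is more than 1 clone, so p-values measure the spread between arrays.

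Rpd3 removes acetyl groups from histone tails and works in a large complex, Rpd3L, and a small one, Rpd3S. DNA-binding proteins such as Ume6 and Ash1 bring Rpd3L to promoters, Sin3 holds the complex together, and genes of meiosis and of inositol synthesis are its best known repressed targets. Rpd3 also acts at stress genes and near telomeres, where it is known to limit silencing. Inositol pyrophosphates, made by the kinases Kcs1 and Vip1, carry extra phosphates on an inositol ring, and human class I deacetylase complexes bind inositol phosphates between the enzyme and its partner.

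Each value is a log2 ratio of mutant over wild type, given for array 1 and then array 2, so that 1 means a 2-fold higher and -1 a 2-fold lower ratio. The arrays gave 5616 and 5720 values, of which 5597 were on both and were tested. With 2 arrays the precision of each ratio is limited. Across genes the arrays had a Pearson r of 0.72 and a Spearman rho of 0.61, and the median difference between them was 0.41 without its sign (genes are not independent replicates). "Rose" and "fell" are used of genes with a limma adjusted p under 0.05. Such a call was made for 20.9% of the genes tested: 587 rose (10.5%) and 583 fell (10.4%), of which 283 and 320 changed at least 2-fold. Both arrays gave the same sign for 1169 of the 1170 genes called. The count was 420 without array 1 and 694 without array 2. Both arrays carried the mutant in Cy5, so a dye effect and the genotype cannot be told apart within them. A dye term left 503 calls, but it rested on 1 swapped array, of wild type in KCl over wild type in log growth. The swapped arrays of another mutant were left out of that fit.

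**Figure D1:**
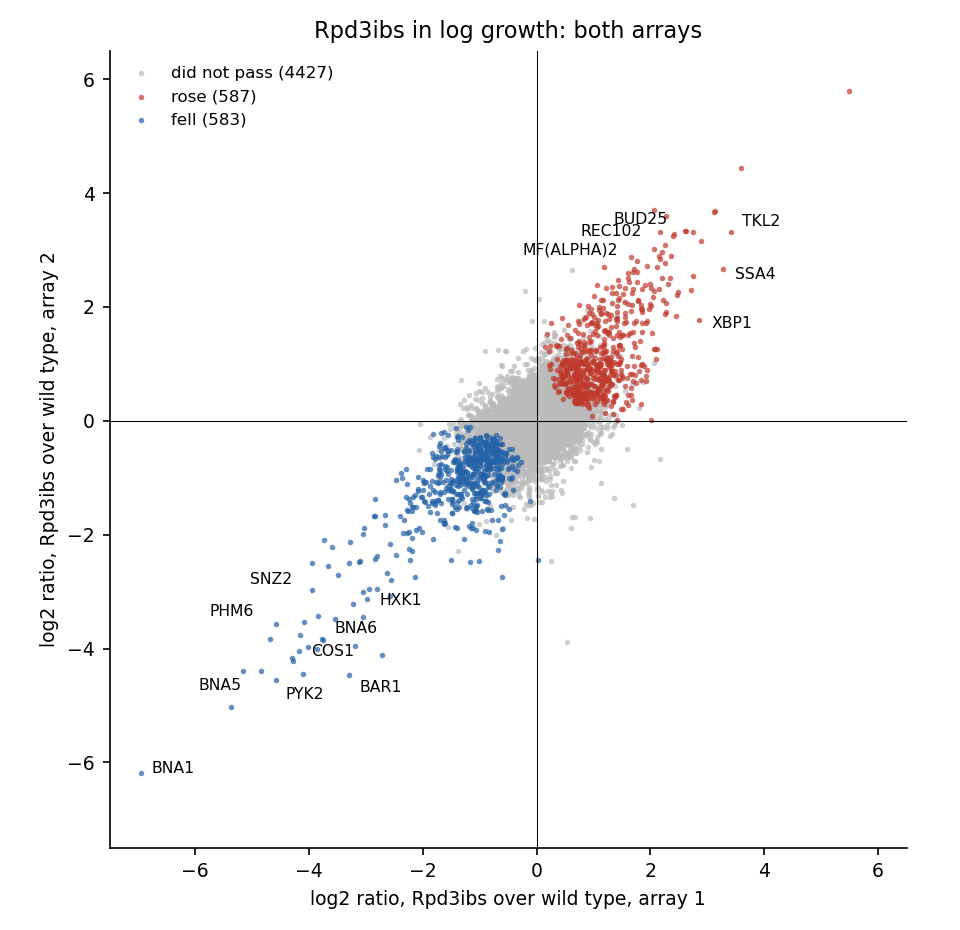
Each point is a gene or probe with a log2 ratio of Rpd3ibs over wild type on array 1 (horizontal) and array 2 (vertical). BNA1 lies at -6.95 and -6.19, and 4 probes without a gene symbol lie above TKL2, the highest named gene by mean ratio.

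The strain labels were checked against the altered genes. RPD3, which is mutated and not removed in Rpd3ibs, had ratios of 0.02 and 0.35 and did not pass, so its transcript level does not check the label. It had no value on the rpd3 array. SNT1, a scaffold of the Set3 deacetylase complex, had no value on either snt1 array. KCS1 was at -7.08 and -7.16 on the kcs1vip1 arrays that measured it.

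The genes of NAD synthesis gave the lowest ratios of the arrays. The BNA genes encode the enzymes that make NAD from tryptophan and are known to be repressed by the deacetylase Hst1 with Sum1. BNA1, the 3-hydroxyanthranilate dioxygenase, was at -6.95 and -6.19, a mean of -6.57 ± 0.54 (SD, n = 2; adjusted p = 1.22e-13). BNA5, the kynureninase, was at -4.84 and -4.40, BNA6, the quinolinate phosphoribosyltransferase, at -3.77 and -3.83, and BNA4, the kynurenine monooxygenase, at -2.80 and -2.38. TNA1, the nicotinic acid permease, was at -3.04 and -3.0. All 5 of these fell, with values on the 2 arrays that differed by less than 1. BNA2, which encodes the first enzyme of the pathway, had a value on array 2 alone, of -6.26, and could not be tested. Of the 8 genes of the list tested (10 listed, 9 on the array), 6 fell and none rose, with a median of -2.81 beside -0.01 over all genes tested, and 5 fell without either array. NPT1, of the salvage route, was at -0.66 and -0.84 and lost its call without either, and PNC1 and BNA3 did not pass.

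The mutants differed in these genes. On the rpd3 array BNA1 was at -6.85, BNA5 at -4.34, BNA6 at -3.89 and BNA4 at -3.15, and no gene of the list differed from Rpd3ibs in limma, nor at an unadjusted p under 0.05 (0 of 8). On the snt1 arrays BNA1 was at 0.28 and 0.05 and BNA6 at 0.20 and -0.41, while BNA5 was at -2.07 and -2.82. The snt1 arrays lie above both Rpd3ibs arrays for each of these genes. Of the 8 genes, 5 were lower in Rpd3ibs than in snt1, BNA1 by a log2 difference of -6.74 ± 0.56 (SE; adjusted p = 4.11e-10), beside 3.84% of all genes tested. Against kcs1vip1, where BNA1 was at -0.47, -2.16 and -1.21, 6 of 8 were lower, beside 8.82%.

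**Figure D2:**
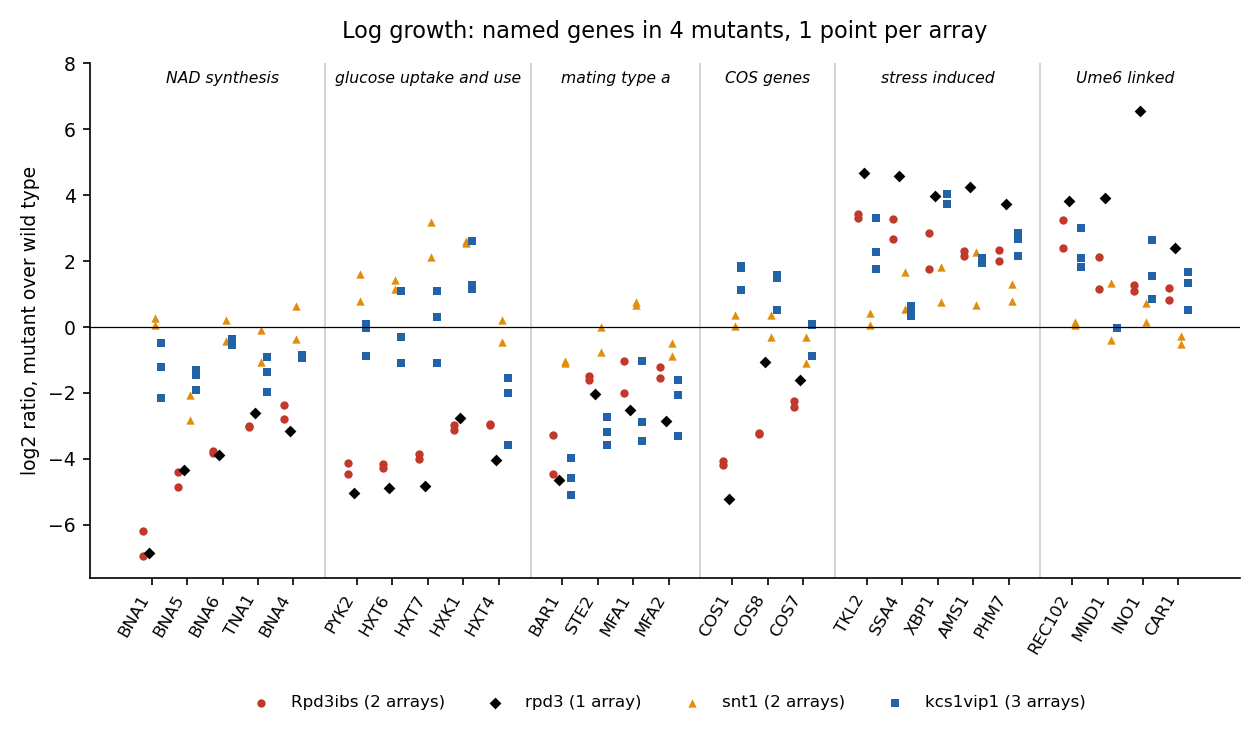
Each point is the log2 ratio over wild type of 1 gene on 1 array in log growth, for Rpd3ibs (2 arrays), rpd3 (1), snt1 (2) and kcs1vip1 (3). BNA1, HXT7 and PYK2 are low in Rpd3ibs and rpd3 and not in snt1, and INO1 reaches 6.54 in rpd3 against 1.27 and 1.09 in Rpd3ibs.

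Genes of sugar uptake, breakdown and storage followed. PYK2, the minor pyruvate kinase, was at -4.11 and -4.45. HXT6 and HXT7, neighbouring high-affinity glucose transporters of nearly the same sequence, were at -4.29 and -4.16 and at -3.85 and -4.0. HXT4 was at -2.94 and -2.96, and HXK1, a hexokinase, at -2.98 and -3.13. SUC2, the invertase, was at -1.62 and -1.82, and GSY1, a glycogen synthase, at -2.24 and -2.25. All 7 fell, SUC2 not without array 2. Other genes of the pathway went the other way: CDC19, the main pyruvate kinase, was at 2.08 and 1.27 and rose, as did the enolase ENO2 at 1.46 and 1.33 and ADH2, the dehydrogenase that uses ethanol, at 1.92 and 1.72. The CDC19 call was lost without array 1 and that of ENO2 without either array.

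Of 17 hexose transporter genes tested, 5 fell and 1 rose (median -0.54), and 3 and 4 fell without array 1 and array 2. Of 21 glycolysis genes 3 fell and 4 rose (median 0.19), and of 27 glucose-repressed carbon genes 3 fell and 8 rose (median 0.51), against 10.4% that fell and 10.5% that rose over all genes. Without array 1 the counts that rose were 1 and 6 for the last 2 lists, and without array 2 they were 2 and 3. HXT17, another hexose transporter gene, rose, at 2.26 and 2.78, and was also at 1.57 and 2.82 on the snt1 arrays, and its call was lost without array 2. ICL1, the isocitrate lyase of the glyoxylate cycle, was at 1.43 and 2.47 and rose (not without array 2), and was at 0.83 and 2.35 in snt1. The ratios of HXT7 were 3.18 and 2.11 in snt1 and those of HXK1 2.56 and 2.60, so Rpd3ibs was lower by -6.57 ± 0.66 and -5.64 ± 0.55 (SE; adjusted p = 1.51e-08 and 8.6e-09). On the rpd3 array HXT7 was at -4.82 and PYK2 at -5.02.

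Genes of mating type a fell in these MatA cells. BAR1, the protease that degrades alpha factor, was at -3.29 and -4.47. STE2, the alpha-factor receptor, was at -1.48 and -1.62, and the a-factor genes MFA1 and MFA2 were at -2.0 and -1.04 and at -1.56 and -1.21. ASG7, an a-specific gene, was at -1.71 and -0.77, and the a-factor transporter STE6 at -0.50 and -0.85. These 6 of 7 genes tested fell (median -1.39), beside 10.4% of all genes tested, and AGA2, at -0.80 and -0.14, did not pass. The count was 2 without array 1 and 5 without array 2. Of the alpha-cell genes on the array, MF(ALPHA)2, an alpha-factor gene, rose, at 2.17 and 2.85, but was at 1.03 and 3.06 on the snt1 arrays. SAG1, the alpha agglutinin, was at 0.22 and -0.19, and STE3, the a-factor receptor, had no value. HMLALPHA1, at the silent mating cassette, was at 1.07 and 1.72 and rose, while it was at 1.08 and 2.06 in snt1. The part of a change of cell identity in these ratios was not tested.

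Among 25 haploid and pheromone genes 6 fell and 2 rose (3 and 1 that fell without array 1 and array 2). Over all genes tested 10.4% fell and 10.5% rose. SST2, which turns the pheromone signal off, was at -1.39 and -1.54, and KAR4, a regulator of mating genes, at -1.05 and -0.97. STE18, the G protein gamma subunit, was at -1.43 and -0.67 and also fell, while FIG2, a mating adhesin, rose, at 1.94 and 0.89. On the kcs1vip1 arrays BAR1 was at -5.11, -4.58 and -3.96 and STE2 at -3.58, -3.18 and -2.72. Against kcs1vip1 none of the 7 a-cell genes was lower in Rpd3ibs in limma (0 at an unadjusted p under 0.05), and STE2 was higher, by 1.61 ± 0.42 (SE; adjusted p = 0.00628). Against snt1, 5 of 7 were lower in Rpd3ibs, beside 3.84% of all genes tested, MFA1 by -2.24 ± 0.49 (SE; adjusted p = 0.00315).

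Early meiotic genes are the classical targets of repression by Ume6 and Rpd3. Of 34 listed, 33 were on the array and 21 were tested. Of the 21, 9 rose and 2 fell (median 0.39), beside 10.5% and 10.4% of all genes tested. The listed genes that were not tested lacked a value on at least 1 array, so the tested genes are not the whole list. REC102, of the meiotic recombination machinery, was at 2.39 and 3.24 (adjusted p = 2.56e-06). MND1, of strand exchange, was at 1.14 and 2.13. SPO22, HOP1 and MEI4, of chromosome pairing and breaks, were at 1.14 and 1.87, 1.00 and 1.83, and 0.98 and 1.73. REC8, DMC1, ZIP1 and RIM4 also rose, with values from 0.59 to 1.46. HFM1, a meiotic helicase, went the other way, at -3.30 and -2.50, against -0.79 in rpd3, and MUM2 was at -0.78 and -0.53, and 1 of the 2 fell with either array left out. The count that rose was 5 without array 1 and 3 without array 2. Several of these genes were also high on the second snt1 array, which shares a slide with Rpd3ibs array 2: MND1 was at -0.39 and 1.32 in snt1, MEI4 at -0.01 and 1.53, REC8 at -0.57 and 1.47, and DMC1 at -0.12 and 1.18. REC102, at 0.07 and 0.16 in snt1, and SPO22, at -1.07 and -0.98, were the 2 of 19 that were higher in Rpd3ibs than in snt1, beside 3.46% of all genes. With slide as a fixed block in the fit, 5 early meiotic genes rose and 1 fell. The part of the slide in the values of single genes was not tested.

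The other genes known as Ume6 targets, those of inositol, arginine and acetate use, rose in 3 of 13 cases and fell in none (median 0.12), with 0 that rose without array 1 and 2 without array 2. The share called was 23.1%, near the 20.9% of all genes tested, of which 10.5% rose. INO1, which makes inositol phosphate from glucose, was at 1.27 and 1.09, the arginase CAR1 at 1.18 and 0.81, and the methyltransferase OPI3 at 0.52 and 0.89. SIP4, an activator of gluconeogenic genes, was at -0.34 and -1.18 and did not pass. Middle and late sporulation genes, which need NDT80, gave 10 tested genes of 23 on the array, with NDT80 at -1.15 and -0.67 as the only call, which was lost without either array. UME6 itself rose, at 1.80 and 0.87 (adjusted p = 0.000125), against 1.84 on the rpd3 array, and lost its call without array 1 (adjusted p = 0.0994).

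The single rpd3 array allowed a direct comparison of the mutant with the deletion, in which the lone array is assumed to vary like the others. Of 5504 genes tested 65 differed (1.18%), 59 of them lower in Rpd3ibs (1.07%) and 6 higher (0.109%). The values of the groups did not overlap for any of these genes. The share without overlap over all genes tested was not computed, so this adds no support to the calls. INO1 was at 6.54 in rpd3, a log2 difference of -5.36 ± 0.43 (SE; adjusted p = 4.52e-10), and SIP4 at 4.08, a difference of -4.84 ± 0.63. DBP1, a helicase, was at 3.93 in rpd3 against 0.83 and 0.28, the acetate transporter gene ADY2 at 3.91 against 0.12 and 0.84, and NDE2, an NADH dehydrogenase, at 4.17 against 0.73 and 0.77. Of the early meiotic genes 3 of 19 were lower than in rpd3, HFM1 with a difference of -2.11, MSH4 with -3.09 and HOP1 with -2.06. The median of the tested early meiotic genes was 1.66 on the rpd3 array, beside 0.16 and 0.64 on the Rpd3ibs arrays, and that of the other Ume6 targets was 1.80, beside -0.04 and 0.10. GAS4, a sporulation wall enzyme, DIT1, of the spore wall, and RPI1, a regulator of wall genes, were higher in Rpd3ibs, with differences of 2.93, 2.69 and 2.02.

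The 2 strains' arrays lie on slides that share no group through which slide and genotype could be separated, so these cannot be told apart. The count was 34 without Rpd3ibs array 1 and 31 without array 2, and 21 after arrays were scaled to the same spread. A gene outside the 65 is not shown to act alike in both strains: the unadjusted p was under 0.05 for 494 genes.

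Stress genes were higher at rest in part. Of 61 common stress-induced genes tested, 18 rose and 7 fell (median 0.50). TKL2, a transketolase, was at 3.42 and 3.32, the highest named gene. The chaperone gene SSA4 was at 3.27 and 2.67, XBP1, a repressor made in stress, at 2.85 and 1.77, the mannosidase AMS1 at 2.15 and 2.31, and PHM7 at 2.01 and 2.33. HXK1 and GSY1, given above, were among the 7 that fell. HSP12, a membrane protein with one of the strongest stress responses, was at -1.36 and -0.22 and did not pass. Without array 1 8 rose and 3 fell, and without array 2 11 rose and 4 fell. The XBP1 call was lost without array 1. On the rpd3 array TKL2 was at 4.68, SSA4 at 4.57, XBP1 at 3.96 and AMS1 at 4.25, each above both Rpd3ibs values, although none of these 4 differences passed (adjusted p from 0.0808 to 0.438). On the snt1 arrays TKL2 was at 0.42 and 0.06, SSA4 at 0.54 and 1.68, XBP1 at 0.76 and 1.81 and AMS1 at 0.67 and 2.28. The second snt1 array, on the slide of Rpd3ibs array 2, thus overlapped the Rpd3ibs values for XBP1 and AMS1. These 4 genes were named for their high ratios in Rpd3ibs. Over the whole list the medians were 0.26 and 0.59 on the Rpd3ibs arrays and 0.705 and 0.83 on the snt1 arrays. Of 60 listed genes tested against snt1, 9 were lower in Rpd3ibs and 4 higher, beside 3.84% and 3.46% of all genes. Further named genes among the highest were RTA1, a membrane protein gene, at 2.34 and 2.51 with 5.14 in rpd3, and MBR1, known from mitochondrial function, at 2.27 and 2.07 with 2.89 in rpd3.

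Oxidative stress genes showed 9 of 26 that rose and none that fell (5 without either array). The peroxiredoxin AHP1 was at 1.86 and 1.56, the superoxide dismutase SOD2 at 1.5 and 1.27, the peroxisomal catalase CTA1 at 0.88 and 1.69, and the regulator YAP1 at 0.99 and 1.05. Among 26 heat shock and chaperone genes 6 rose and 2 fell, while 2 rose and 0 fell without array 1, and 5 rose and 1 fell without array 2. SSA3 was at 1.86 and 0.99, SSE2 at 1.71 and 0.96 and the membrane chaperone HSP30 at 1.45 and 2.16. CUP1-1, a metallothionein, fell, at -2.84 and -1.68, against 4.77, 2.07 and 2.11 in kcs1vip1. Beside these lists, 10.5% of all genes tested rose and 10.4% fell. Of 17 osmotic stress genes 4 rose, among them the catalase CTT1 at 1.09 and 1.00 and GRE2, a reductase, at 0.78 and 1.26, but 1 and 0 rose without array 1 and array 2.

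Genes of growth moved little in log phase. Of 124 ribosome biogenesis genes 5 rose and none fell (median 0.14), and of 136 ribosomal protein genes 5 rose and 1 fell (median 0.14). None of 30 genes of RNA polymerases I and III passed in limma (1 had an unadjusted p under 0.05), and their median was -0.01. Fewer ribosome biogenesis and ribosomal protein genes rose with either array left out. Of 57 mitochondrial ribosomal genes 11 fell and none rose (median -0.52), among them MRPL35 at -1.64 and -1.07 and MRPS9 at -1.31 and -1.36. Without array 1 the count was 3, with slide as a fixed block 4, and without array 2 12, against a background of 10.4%, and the median was -0.80 on array 1 and -0.18 on array 2. Against snt1 20 of 57 were lower, beside 3.84% of all genes, and against kcs1vip1 30 of 57, beside 8.82%. Against rpd3 none differed in limma (2 were higher at an unadjusted p under 0.05), and the list's median on the rpd3 array was -0.73.

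**Figure D3:**
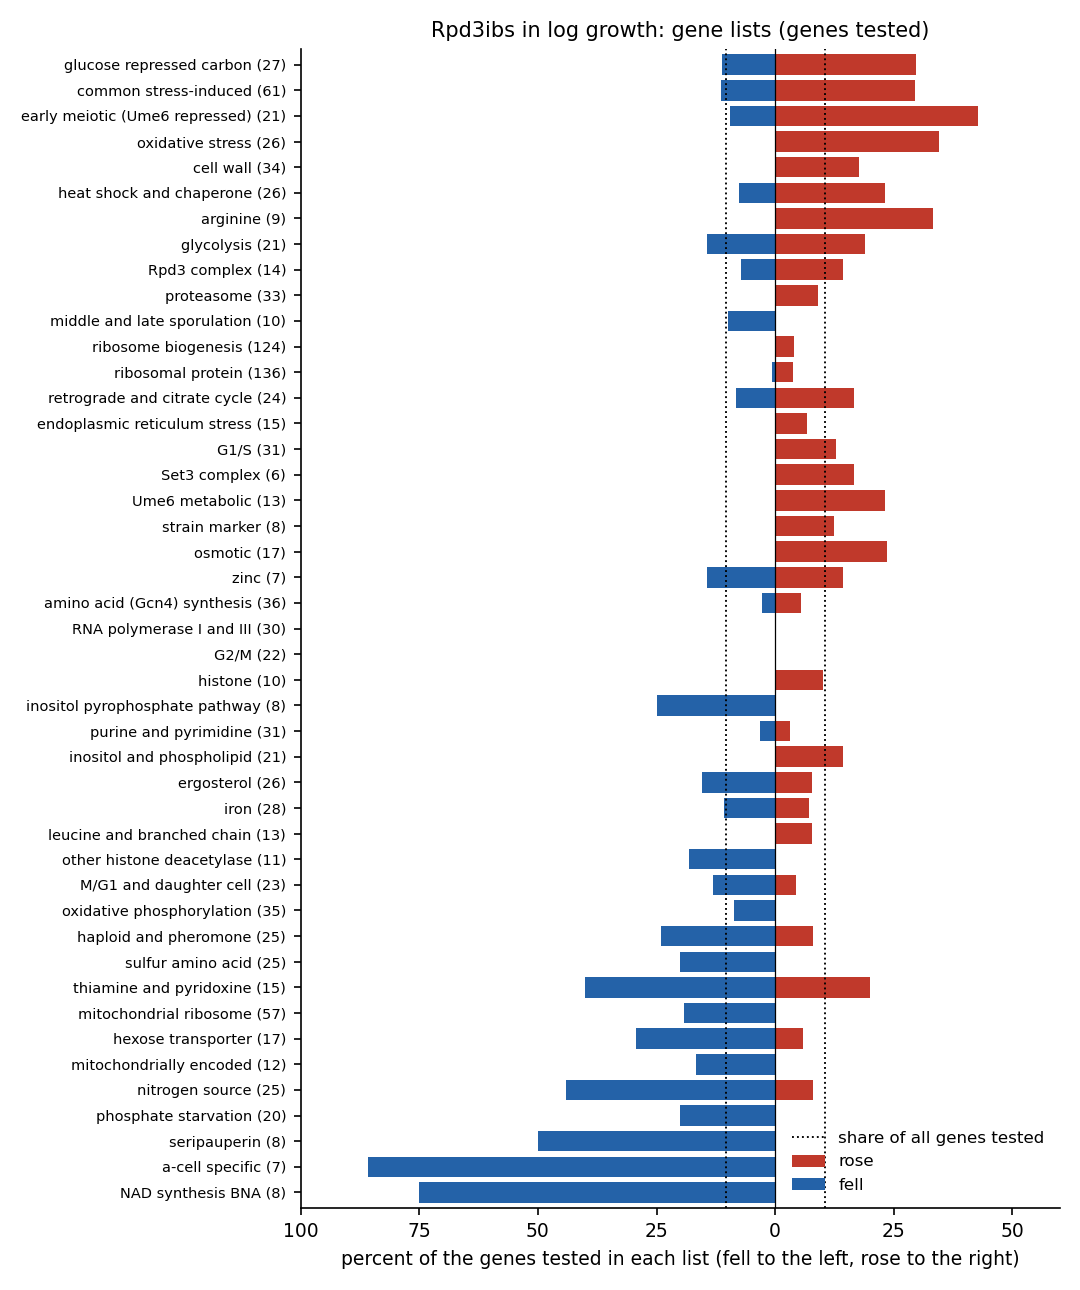
For each gene list with at least 6 genes tested (number in parentheses), the bar to the right is the percent that rose and the bar to the left the percent that fell in Rpd3ibs in log growth, ordered by median ratio. Dotted lines mark the shares over all genes tested, 10.5% and 10.4%, and the NAD synthesis list stands at the bottom with 6 of 8 that fell.

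Single genes of phosphate, nitrogen, sulfur and vitamin supply were among the lowest, while most phosphate and sulfur genes did not pass. PHM6, a gene of the phosphate response, was at -4.57 and -3.57, GIT1, the glycerophosphoinositol transporter, at -2.81 and -2.95, and the acid phosphatases PHO11 and PHO12, which are near-identical, at -2.55 and -2.79 and at -2.58 and -3.08. These 4 of 20 phosphate starvation genes fell (median -0.77), and 2 did without either array, PHM6 and GIT1 losing their calls. The share of the list called was 20%, near the 20.9% of all genes tested, of which 10.4% fell. On the snt1 arrays PHO12 was at -3.52 and -3.36 and GIT1 at -1.75 and -2.36, and none of the 20 differed between Rpd3ibs and snt1 in limma (2 at an unadjusted p under 0.05).

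Nitrogen-source genes gave 11 of 25 that fell and 2 that rose (median -0.61), and 5 and 10 that fell without array 1 and array 2. OPT2, an oligopeptide transporter, was at -3.75 and -3.85, the GABA permease UGA4 at -3.11 and -2.46, the ammonium permease MEP2 at -2.18 and -2.29 and the proline permease PUT4 at -2.18 and -2.06. UGA2, which oxidises succinate semialdehyde from GABA, rose, at 1.68 and 2.25. DCG1, known to respond to nitrogen source, was at -3.95 and -2.50. Sulfur genes fell in 5 of 25 cases (median -0.44), with MET16 at -2.40 and -1.68 and MET2 at -1.62 and -1.80, and in 1 and 4 cases without array 1 and array 2. Calls were made for 52% of the nitrogen-source genes and 20% of the sulfur genes, beside 20.9% of all genes tested, of which 10.4% fell. FRE7, a copper reductase, was at -2.72 and -4.12.

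Vitamin genes split by copy. SNZ2 was at -3.94 and -2.98, and THI11, THI12 and THI5, near-identical genes of thiamine pyrimidine synthesis, were at -2.62 and -2.68, -2.84 and -2.43, and -2.57 and -2.16. SNZ1 and SNO1, the pyridoxine synthesis pair used in stationary phase, rose instead, at 1.55 and 1.90 and at 1.77 and 2.61 (SNO1 not without array 2). In all 6 of 15 fell and 3 rose (median -0.46), and 5 and 6 fell without array 1 and array 2. Over all genes tested 10.4% fell and 10.5% rose. Probes of near-identical genes may read each other's transcripts, which was not tested.

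Genes near chromosome ends fell more often than others. This grouping was made after the values were seen and carries no test. It uses the order of the annotated genes of the R64 yeast assembly, which is a reference strain and not W303. Of the 5 genes nearest each end of the 16 chromosomes, 52 were tested, and 24 of them fell (46.2%) while 5 rose (9.62%), with a median of -0.59. Of genes 6 to 10 from an end 25 of 82 fell (30.5%), of genes 11 to 15 18 of 86 (20.9%), of genes 16 to 20 11 of 110 (10%), and of genes 21 to 30 13 of 228 (5.7%). Further in, 279 of 3364 fell (8.29%). The share was lower at each step inward up to gene 30. Without either array 19 of the first group fell.

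The end genes include families found mostly there. COS genes encode membrane proteins of the sorting of other membrane proteins. COS1 was at -4.18 and -4.05, COS8 at -3.23 and -3.21 and COS7 at -2.23 and -2.44, and 9 of 10 COS genes tested fell (median -1.52). COS6, at -0.41 and -0.24, did not pass. COS2 and COS3 had nearly the same values, at -1.82 and -1.21 and at -1.79 and -1.25. Whether probes of such families read each other's transcripts was not tested, and the counts take each copy as a separate gene. Beside the counts of COS and seripauperin genes, 10.4% of all genes tested fell. Seripauperin genes, of small wall proteins, fell in 4 of 8 cases (4 without array 1 and 2 without array 2), with PAU6 at -1.48 and -1.62 and PAU5 at -1.06 and -1.38. IMD2, an IMP dehydrogenase and the third gene from the right end of chromosome VIII, was at -4.01 and -3.98 (its call was lost without either array), SEO1, a permease, at -3.05 and -1.99, and the maltases MAL12 and MAL32 at -2.08 and -1.19 and at -1.71 and -0.64. The YRF1 helicases, in the outermost repeats, did not pass and were slightly above 0, with YRF1-6 at 0.49 and 0.57. ERR2, an enolase-related gene, was at 1.94 and 2.72 and rose (not without array 2), but was at 0.78 and 2.44 on the snt1 arrays.

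**Figure D4:**
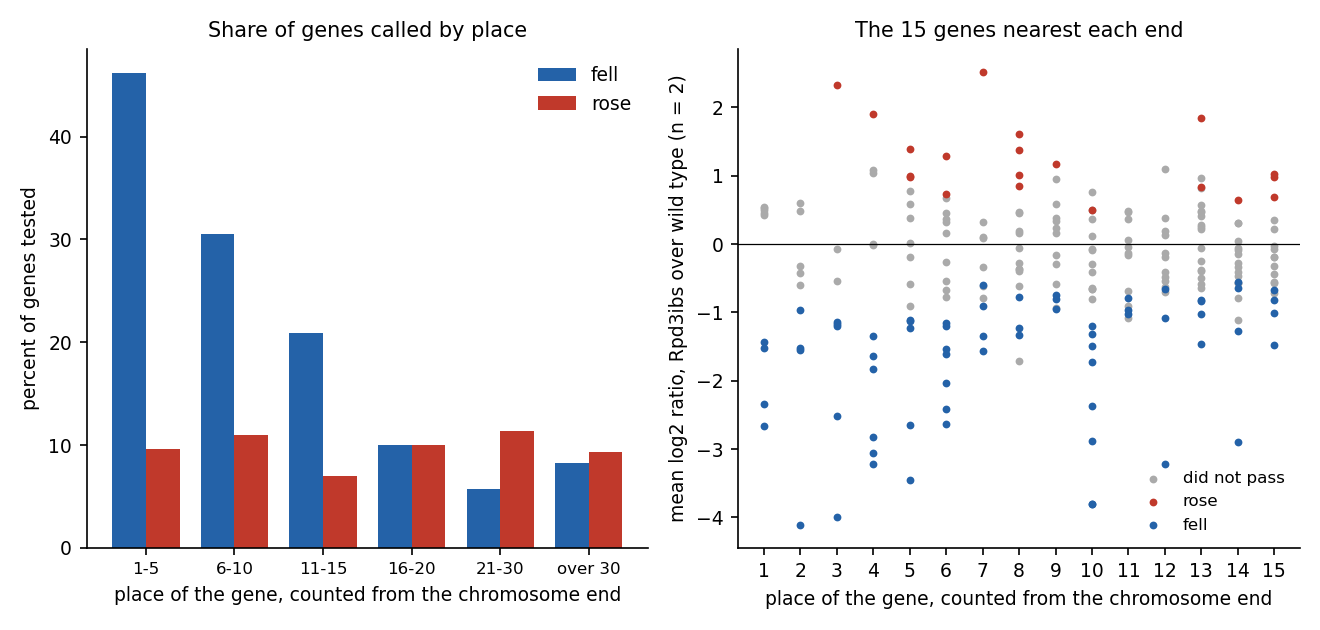
Left, bars give the percent of tested genes that fell or rose in Rpd3ibs by place from the nearest chromosome end, from 46.2% that fell at genes 1 to 5 to 8.29% beyond gene 30. Right, each point is the mean log2 ratio (n = 2) of a gene among the 15 nearest an end.

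At the 5 genes nearest each end snt1 and kcs1vip1 had medians near or above 0, and rpd3 lay between them and Rpd3ibs. The median of the 5 nearest was -0.67 and -0.63 on the Rpd3ibs arrays, 0.08 on each snt1 array, -0.20 on the rpd3 array, and -0.03, 0.38 and 0.05 on the kcs1vip1 arrays. For genes 6 to 10 and 11 to 15 the rpd3 medians were -0.255 and -0.275, beside -0.37 and -0.30 for the mean Rpd3ibs ratios. Of 51 tested against snt1, 15 were lower in Rpd3ibs and none higher in limma (2 higher at an unadjusted p under 0.05), beside 3.84% and 3.46% of all genes. Of 10 COS genes, 6 were lower than in snt1 and 9 lower than in kcs1vip1, beside 3.84% and 8.82% of all genes. On the rpd3 array COS1 was at -5.23, COS7 at -1.62, COS5 at -0.97 and COS9 at -0.91. COS4, COS3 and COS2 were at -0.77, -0.48 and -0.47 there, COS6 at 0.00 and COS10 at 0.81. Some COS genes were above wild type in kcs1vip1 itself. COS1 was at 1.12, 1.78 and 1.84 there, and COS6, which did not pass in Rpd3ibs, at 1.27, 2.38 and 1.79, while COS10 was at -2.37, -0.57 and -2.20. Against rpd3 4 of 51 were lower, beside 1.07%. COS8 was at -1.05 in rpd3, and PAU6 and PAU24 were at 0.18 and 0.57, each above both Rpd3ibs values (adjusted p of the differences 0.00207, 0.02 and 0.02).

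RPD3 itself is the eighth annotated gene from the left end of chromosome XIV. Toward the telomere lie COS1, SNZ2 and THI12, which were low in Rpd3ibs and, at -5.23, -5.51 and -2.95, on the rpd3 array. Next to RPD3, AAD14 was at -0.86 and 0.19 and PEX6 at 0.44 and 0.23, and neither passed. SNO2, between COS1 and SNZ2, had a value on array 1 alone, of -4.12. MDJ2, the next gene inward from PEX6, fell, at -1.06 and -1.57. The part of the strain's construction at this locus in these values was not tested.

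Genes of the deacetylase complexes and of inositol pyrophosphate metabolism changed about as often as all genes. Of 14 Rpd3 complex genes UME6 and SIN3 rose, SIN3 at 1.16 and 0.34, and SDS3, a core subunit, fell, at -0.58 and -1.28. Of 6 Set3 complex genes CPR1, the cyclophilin A, rose, at 1.03 and 1.69. Of 11 other deacetylase and corepressor genes HOS1 fell, at -1.31 and -0.93, as did HST4, at -1.24 and -0.48. HOS1 was at -1.01 and -1.07 in snt1 and -0.89 in rpd3. Of 8 inositol pyrophosphate genes DDP1, the phosphatase that removes the pyrophosphate, fell, at -1.96 and -1.42, and so did the inositol monophosphatase INM1, at -1.03 and -0.89. The kinases KCS1, at 0.18 and -0.01, VIP1, at 0.37 and -0.24, IPK1 and ARG82 did not pass. These are 3 of 14, 1 of 6, 2 of 11 and 2 of 8 genes, near the background of 20.9%. The members that did not pass had mean ratios from -0.62 (HDA2) to 0.50 (SNT1 and HST2). None of these calls held both without array 1 and without array 2. UME6, SIN3, HOS1, HST4 and DDP1 lost theirs without array 1, SDS3 and CPR1 without array 2, and INM1 without either.

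The strains differed at marker genes. LEU2, of leucine synthesis, was at 0.53 and 1.28 in Rpd3ibs, at -4.33 and -5.01 in snt1 and at -4.19, -3.97 and -4.37 in kcs1vip1. LEU1, OAC1 and BAT1, genes of the same pathway, were at -0.60 and -0.66, -0.80 and -0.72, and -0.02 and 0.08 in Rpd3ibs, and from -3.10 to -5.22 in snt1. HIS3, at -0.90 and 1.22, and TRP1, at -0.24 and 1.23, differed between the Rpd3ibs arrays. The part of the markers in the differences from snt1 and kcs1vip1 was not tested.

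Against snt1, 399 of 5469 genes differed (7.3%), 189 higher (3.46%) and 210 lower (3.84%) in Rpd3ibs. The groups overlapped for none of them, which adds no support, as the share over all genes tested was not computed. Array 2 shared a slide with the second snt1 array, and 242 differed with slide as a fixed block. The count was 164 and 326 without Rpd3ibs array 1 and 2, and 146 and 201 without snt1 array 1 and 2. The largest differences were those of BNA1, HXT7, HXK1, HXT6 (-5.53 ± 0.71, SE) and PYK2 (-5.47 ± 0.47), and, higher in Rpd3ibs, LEU2 (5.58 ± 0.40), LEU1 (4.33 ± 0.56), OAC1 (3.88 ± 0.42), HXT1 (3.74 ± 0.68) and BAT1 (3.19 ± 0.34). HXT1, the low-affinity glucose transporter, was at 0.52 and -0.08 in Rpd3ibs and at -3.25 and -3.78 in snt1. Some of the highest genes of Rpd3ibs were as high in snt1: BUD25, named for bud site selection, was at 2.74 and 3.31 in Rpd3ibs and 2.12 and 3.63 in snt1, and PAC11, of the dynein motor, at 2.06 and 2.28 against 1.12 and 1.91.

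Against kcs1vip1, 930 of 5569 genes differed (16.7%), 439 higher (7.88%) and 491 lower (8.82%). Values did not overlap for 919 of them, which adds no support, as the share over all genes tested was not computed. Slide and strain cannot be told apart here. The count was 420 without Rpd3ibs array 1, and it was 340 with only the 5 arrays of both groups in the fit. HSP12 was at 7.06, 5.71 and 5.56 in kcs1vip1, a difference of -6.90 ± 1.06 (SE; adjusted p = 2.22e-05). FIT2, a wall protein of iron uptake, was at 6.14, 4.96 and 5.77 against -1.13 and -1.09. PIR3, a wall protein, and COS1 differed by -5.70 ± 0.64 and -5.70 ± 0.26. Higher in Rpd3ibs were KCS1 (7.21 ± 0.78), which kcs1vip1 lacks, ARG1 (5.57 ± 0.63), of arginine synthesis, LEU2 (5.08 ± 0.37), LEU1 (4.90 ± 0.52) and OAC1 (4.80 ± 0.38). Of the common stress-induced genes 18 of 61 were lower and 2 higher than in kcs1vip1. REC102, at 2.09, 3.01 and 1.82, and YTP1, at 2.06, 3.57 and 3.56, overlapped the Rpd3ibs values, which were 2.74 and 2.55 for YTP1, a membrane protein gene.

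The same strains in KCl show which of the log-phase ratios depended on the condition. KCl minus log differed for 404 of 5565 genes (7.26%), 248 higher (4.46%) and 156 lower (2.8%). Each log array shared its slide with a KCl array, and pairing them by slide raised the count to 703 with slide as a fixed block (377 higher and 326 lower) and to 772 as a random block (407 and 365). Without a block the count was 119 and 185 without log array 1 and 2, and 97 and 128 without KCl array 1 and 2. TKL2 went from 3.42 and 3.32 in log growth to -0.65 and -1.19 in KCl, a difference of -4.29 ± 0.43 (SE; adjusted p = 1.62e-07). XBP1 went to -0.07 and -0.76, PHM7 to -0.32 and -0.78, THI4, of thiamine synthesis, from 1.13 and 1.90 to -1.79 and -0.53, and HXT5 from 0.86 and 1.09 to -1.24 and -2.07.

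In the stress-induced list 21 of 61 were lower in KCl than in log growth and 1 was higher, and the median went from 0.26 and 0.59 to -0.59 and -0.65. Ribosome biogenesis genes went the other way: 82 of 124 were higher in KCl, with medians of 0.09 and 0.12 in log growth and 1.87 and 1.77 in KCl. NSR1, a nucleolar protein, went from 0.53 and 0.40 to 3.16 and 3.18, and PPM2, a tRNA methyltransferase, from -0.06 and -0.55 to 2.62 and 2.10. Both channels were in KCl there, so these are ratios of stressed mutant over stressed wild type.

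Other log-phase ratios were as low in KCl. BNA1 was at -6.76 and -6.22 in KCl, BNA5 at -5.23 and -4.96, COS1 at -4.45 and -4.51 and BAR1 at -3.64 and -4.49. None of 8 NAD synthesis genes and none of 7 a-cell genes differed between conditions in limma, nor at an unadjusted p under 0.05 (0 genes). BNA1 differed by 0.08 ± 0.56 (SE), and a p that misses the threshold does not show equal ratios. HXT4 did differ, from -2.94 and -2.96 to 0.44 and -0.69, as did MMP1, a permease of S-methylmethionine, from -1.73 and -1.39 to 1.67 and 1.00, and STR3, of sulfur transfer, from -1.11 and -1.04 to 1.22 and 2.20.

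**Figure D5:**
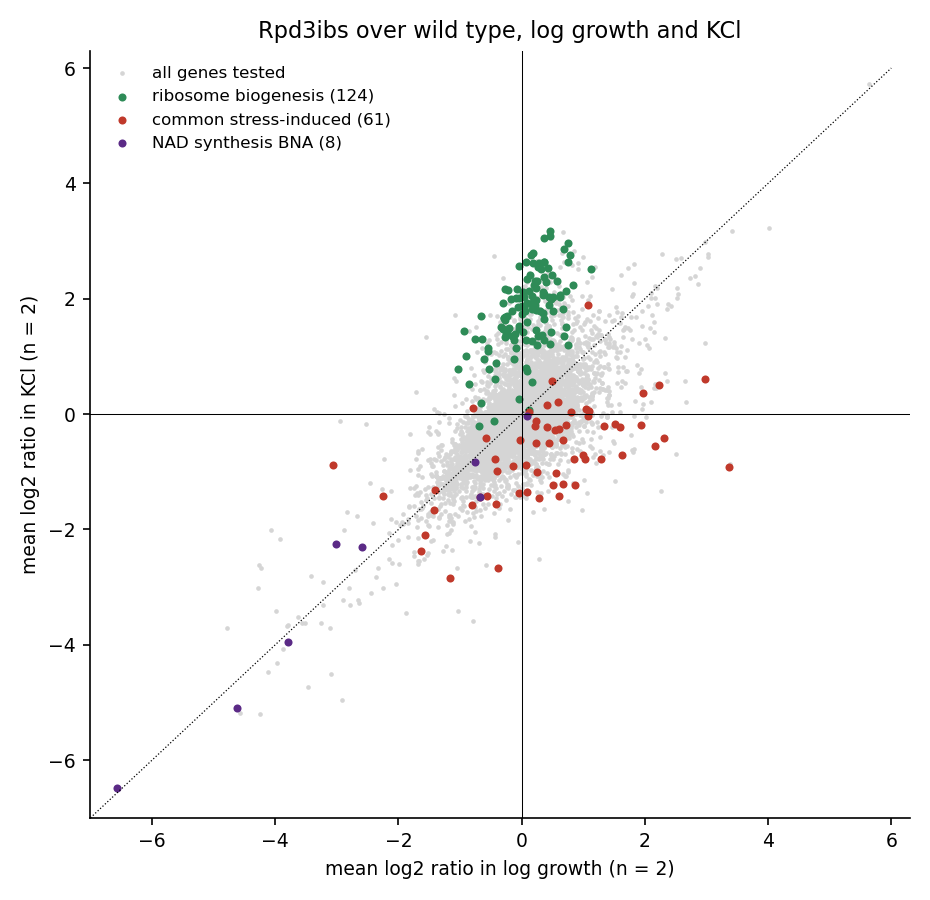
Each point is a gene, with its mean log2 ratio of Rpd3ibs over wild type in log growth (horizontal, n = 2) and in KCl (vertical, n = 2); the dotted line marks equal ratios. Most ribosome biogenesis genes lie above the line, most stress-induced genes below it, and BNA1 lies near it at -6.57 and -6.49.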

How the data were processed

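RNA of a mutant and of wild type was hybridised together on 2-colour arrays. Of the values the authors deposited, 1 column of log2 ratios per array was used, with the wild type in Cy3 and Rpd3ibs in Cy5 per the labels. The ratios are read as log2 because they are signed and centre near 0. The log base, normalization and centring are not given in the sources used here, nor whether wild type RNA was shared between arrays. No intensities were used.

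After 61 control entries were left out, 6256 probes remained, 4075 with 1 gene symbol and 2181 with none. Symbols were matched to the R64 annotation: 3942 directly, 129 through a synonym and 4 not at all. Probes of 7 symbols were averaged, giving 6249 genes or probes. In 3 other columns 407 exact zeros were set to missing.

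The fit, in limma 3.58.1 (R 4.3.3), gave each group of the 54 arrays with a labelled group its own mean, and had no block. It had 27 residual and 5.05 prior degrees of freedom, and the median residual SD was 0.38. A test needed values on both arrays of Rpd3ibs, and at least 2 (rpd3: 1) in the other group. P-values were adjusted by Benjamini-Hochberg over all genes tested. Tests were run on simulated data with the real design first. Tables and figures used python 3.11.15, numpy 2.4.6, pandas 2.3.3 and matplotlib 3.10.9.

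The rule for naming took, among called genes with a symbol and the same sign on both arrays, the 15 at either extreme of the ratio, the 5 at either extreme of each difference whose groups do not overlap (fewer where fewer passed), the deacetylase, inositol pyrophosphate and marker genes (those without a call partly by their range), and, of each other list, at most 6 members with the most extreme ratios. Further genes were named after their values were seen, among them those of chromosome ends. The arrays compared, the 46 lists and the tests were chosen with earlier results of these data known. Alternatives were centring and scaling of arrays, slides as a block, a dye term, robust moderation, fewer arrays or genes, and leaving out each array. Promoter and protein sequences were not used here.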

Additional observations from a re-analysis of the deposited data

Results flagged for a closer look

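Differences between groups that passed a test of the difference itself (limma contrasts) are given as log2 values. For the other mutants they are Rpd3ibs in log growth minus the other group, and for KCl they are Rpd3ibs in KCl minus Rpd3ibs in log growth. The genes that differed numbered 399 from snt1, 930 from kcs1vip1, 65 from rpd3 and 404 between KCl and log growth.

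From snt1, BNA1 differed by -6.74, HXT7 by -6.57, HXK1 by -5.64, HXT6 by -5.53, PYK2 by -5.47, LEU2 by 5.58, LEU1 by 4.33, OAC1 by 3.88, HXT1 by 3.74 and BAT1 by 3.19. From kcs1vip1, HSP12 differed by -6.90, FIT2 by -6.73, PIR3 by -5.70, COS1 by -5.70, BNA1 by -5.29, KCS1 by 7.21, ARG1 by 5.57, LEU2 by 5.08, LEU1 by 4.90 and OAC1 by 4.80.

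From the single rpd3 array, INO1 differed by -5.36, SIP4 by -4.84, ADY2 by -3.43, NDE2 by -3.42, DBP1 by -3.38, GAS4 by 2.93, DIT1 by 2.69 and RPI1 by 2.02. GAS4 and DIT1 were also high on the second snt1 array, at 2.41 and 1.35, which shares a slide with Rpd3ibs array 2.

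In KCl minus log growth, TKL2 differed by -4.29, XBP1 by -2.73, PHM7 by -2.72, THI4 by -2.68, HXT5 by -2.63, MMP1 by 2.90, HXT4 by 2.83, STR3 by 2.79, NSR1 by 2.71 and PPM2 by 2.67. Both channels of the KCl arrays were in KCl, so each difference sets the mutant's response to KCl against that of the wild type. Whether a value comes from the mutant or from the wild type was not tested.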

How the results depend on the processing

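The genes called in Rpd3ibs in log growth numbered 643 with slide as a fixed block and 503 with a dye term, and 420 to 694 with either array left out, against 1170. The other alternatives gave 860 to 1183. From snt1 the count was 242 with the fixed block, 212 with only mutant over wild type arrays in log growth, and 146 to 326 with 1 array left out. From kcs1vip1 it was 340 with only the groups compared and 420 to 984 with 1 array left out. From rpd3 it was 21 after scaling, 35 over genes on every array, 103 with slide as a random block, 24 with log-growth arrays alone, 138 with only the groups compared, and 31 to 34 with 1 array left out. For KCl minus log it was 246 after scaling, 772 and 703 with slide as a random and a fixed block, and 97 to 185 with 1 array left out. Of the genes nearest chromosome ends 24 of 52 fell, and 16 to 25 under the other alternatives, while 49 of 134 fell among the 10 nearest. The fixed block could not be fitted for kcs1vip1 and rpd3, whose slides share no group with those of Rpd3ibs. Among the 30 highest and lowest genes 25 kept their call with the dye term, 27 with the fixed block, 27 without array 1 (lost were PHM6, IMD2 and XBP1) and 25 without array 2 (PHM6, IMD2, HXT17, ERR2 and SNO1), and all 30 did with centring, scaling, robust moderation and a random block. KGD1, of the citrate cycle, turned from -0.88 to 0.065 with the dye term. The cause of these shifts was not tested. By replicate number no paired analysis was possible because the labels carry none, and pairing rests on the shared slides alone, through the blocks above. With 2 arrays, signal over background unknown and a median SD between arrays of 0.29, the smallest mean ratio called was 0.42.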

Other observations

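Lipid, wall and metal genes changed in small numbers. Calls were made for 23.1% of ergosterol, 17.6% of wall and 17.9% of iron genes, near the 20.9% of all genes tested (10.5% rose and 10.4% fell). Of 26 ergosterol genes 4 fell, among them the mevalonate kinase ERG12 at -0.90 and -1.22 and ERG26 at -1.19 and -0.73, and 2 rose, with the reductase HMG2 at 1.24 and 0.72. Of 34 cell wall genes 6 rose and none fell, with CIS3 at 1.34 and 1.22 and CWP2 at 1.44 and 1.56. Of 28 iron genes 3 fell and 2 rose. FIT1 was at -1.34 and -1.13 and ARN2, a siderophore transporter, at -1.36 and -0.90, while BIO5, a transporter of biotin synthesis, was at 1.41 and 1.80. Without array 1 or array 2 only 1 ergosterol gene and no iron gene fell, and 2 and 3 wall genes rose. The iron genes gave 14 of 28 lower than in kcs1vip1, beside 8.82% of all genes.

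Cell cycle lists held few calls, while 10.5% of all genes tested rose. Of 31 G1/S genes 4 rose, the DNA polymerase POL2 at 1.32 and 0.99, and of 22 G2/M genes none passed in limma (5 at an unadjusted p under 0.05). Of 33 proteasome genes 3 rose, RPN6 at 0.76 and 0.79. Of 10 histone genes the linker histone HHO1 rose, at 0.50 and 0.80. Without either array 1 of the G1/S genes and none of the proteasome and histone genes rose.

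Mitochondrially encoded genes differed between the arrays. COX2 was at 0.53 on array 1 and -3.89 on array 2, and the medians of the list were 0.11 and -1.33. In KCl COX2 was at 1.49 and -2.84, and in snt1 at 0.22 and -2.04, where the second value of each is from the slide of array 2.

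The highest mean ratio, 5.65, belonged to a probe with no gene symbol, and 422 of the 1170 calls were of such probes.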
